A study of Mus musculus with 5 samples.

Results

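The 7 genes described here are the type 1 cytokines Ifng, Tnf, Csf2 and Il2 and 3 genes that regulate them, Tbx21, Il12rb2 and Stat4, taken by symbol from the 32285 gene rows of 2 mouse single-cell RNA libraries. All 7 were found, each in 1 row. Both libraries came from BALB/c mice, 6 weeks old, injected under the skin with CT26, a colon carcinoma line of the mouse. One library is labelled for anti-CTLA-4, given as clone 9H10 by intraperitoneal injection at 100 µg on days 5, 8 and 11. The other is the control, from mice injected with phosphate-buffered saline, and collection was on day 13 for each. No genetic change is labelled in either group, both groups carried the tumour, and the material is labelled only as tissue, dissociated with a tumour kit. There was 1 RNA library and 1 T cell receptor (TCR) library per group, the number of mice behind a library is not given in the sources used here, and no difference below has a replicate check. Intervals in brackets are at the 95% level and reflect counting error alone.

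Type 1 immunity is the arm of the response directed at infected and transformed cells. In CD4 and CD8 T cells and natural killer (NK) cells, interleukin 12 binds a receptor of which Il12rb2 encodes the inducible chain, STAT4 carries the signal, and the transcription factor T-bet, the product of Tbx21, opens the program that includes Ifng. Interferon gamma then acts on macrophages and many other cells, TNF and GM-CSF (Csf2) activate myeloid cells, and interleukin 2 feeds T cells. CTLA-4 is a brake on T cells, competing with the activating receptor CD28 for shared ligands.

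The genes lie on 6 chromosomes of GRCm38 (GENCODE annotation, whole genes, all protein coding). Ifng is at chr10:118441046-118445892 on the plus strand and Tnf at chr17:35199381-35202007 on the minus strand. Csf2 is at chr11:54247271-54249667 and Tbx21 at chr11:97098071-97115331, both on the minus strand. Il2 is at chr3:37120523-37125959 and Il12rb2 at chr6:67291318-67376188, also on the minus strand, and Stat4 is at chr1:51987148-52107189 on the plus strand. The 250 bases before the annotated start are printed for the gene at the centre of the set, for the receptor gene whose level followed it most closely, and for the cytokine gene that myeloid cells also express (RefSeq, GRCm38.p6, 5′ to 3′ on each gene's own strand). Capitals mark a core motif of STAT factors, TTCNNNGAA, or of NFAT, GGAAA, found on either strand (TTTCC is GGAAA read on the other strand).

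Ifng, chr10:118440796-118441045, plus strand: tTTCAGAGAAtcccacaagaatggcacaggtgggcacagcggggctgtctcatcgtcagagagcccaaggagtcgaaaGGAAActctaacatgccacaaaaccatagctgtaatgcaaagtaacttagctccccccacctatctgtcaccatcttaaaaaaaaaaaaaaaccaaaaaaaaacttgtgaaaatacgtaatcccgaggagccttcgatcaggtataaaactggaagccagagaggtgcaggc

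Il12rb2, chr6:67376189-67376438, minus strand: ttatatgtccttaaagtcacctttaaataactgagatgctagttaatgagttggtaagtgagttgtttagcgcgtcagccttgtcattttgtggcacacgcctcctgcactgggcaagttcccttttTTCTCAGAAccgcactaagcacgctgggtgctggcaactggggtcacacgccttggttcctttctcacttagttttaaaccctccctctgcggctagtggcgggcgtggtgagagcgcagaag

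Tnf, chr17:35202008-35202257, minus strand: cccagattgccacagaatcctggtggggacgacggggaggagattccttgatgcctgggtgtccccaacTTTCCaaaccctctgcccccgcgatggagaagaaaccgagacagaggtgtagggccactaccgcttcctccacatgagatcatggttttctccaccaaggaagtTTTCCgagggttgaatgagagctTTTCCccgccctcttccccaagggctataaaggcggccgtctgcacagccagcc

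The Ifng window held 1 STAT core, 249 bases before the start, and 1 NFAT core, 172 bases before it. The Il12rb2 window held 1 STAT core, 123 bases before its start, and no GGAAA. The Tnf window held 3 NFAT cores, at 181, 77 and 54 bases before its start, and no TTCNNNGAA. Over the 32851 promoter windows of that length, 7.02% held TTCNNNGAA and 55.6% held GGAAA, so the second is a common string. The T-box string AGGTGTGA, which 1.12% of windows held, was in none of these 3. A match is a string of letters in the window, and its use in these cells was not measured.

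The other sequences that carry a result are TCR beta CDR3 regions, the stretch that differs from one T cell clone to the next and so marks its descendants. Printed are the 2 largest clonotypes of the anti-CTLA-4 library, the clonotype whose cells fell in both the CD8 and the CD4 class, and 2 in which more than 50% of the cells held Ifng. They are in lower case with no part set in capitals.

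clonotype 1, 5 of 25 cells with Ifng: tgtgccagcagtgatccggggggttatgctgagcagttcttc

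clonotype 2, 4 of 15 cells with Ifng: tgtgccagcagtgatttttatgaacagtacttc

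clonotype 9, 4 of 9 cells with Ifng: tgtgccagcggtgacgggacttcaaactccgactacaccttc

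clonotype 16, 4 of 7 cells with Ifng: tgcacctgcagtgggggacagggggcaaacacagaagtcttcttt

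clonotype 26, 4 of 5 cells with Ifng: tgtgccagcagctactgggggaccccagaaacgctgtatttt

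Cells were classed from clusters of the 2 libraries together, and a class is called by its name followed by -like. RNA molecules are counted as UMIs (unique molecular identifiers), of which the control had 86478313 over 5649 barcodes and the anti-CTLA-4 library 19989467 over 4186. After filters 5234 and 3946 cells were kept, and 20 barcodes occurred in both libraries. T-like cells were 7.51% of the kept control cells and 54.2% of the kept anti-CTLA-4 cells. The control library was mostly Ptprc-negative cells (2918 of 5234), which lack the leukocyte gene Ptprc, against 40 in the anti-CTLA-4 library. Their RNA was found in control lymphocytes: Crabp1, a gene that leads these cells, had a UMI in 49.4% of control T-like cells and in 0.374% of anti-CTLA-4 T-like cells. Over 63 genes of that kind, control T-like cells stood at 7.38% of the level of the Ptprc-negative group and anti-CTLA-4 T-like cells at 0.657%. The part of this difference in the comparisons below was not tested apart from the subtraction given with the limits. Where that subtraction left 0 control UMIs no finite ratio existed. Without subtraction, genes with 0 control UMIs could still be called. A call lost there is therefore a matter of that calculation and does not show the part of free RNA.

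The conventional CD4 T-like class held 59 control and 938 anti-CTLA-4 cells, the CD8 T-like class 72 and 624, and the Treg-like class 126 and 149. In CD4 T-like cells Cd3e, a marker of all T cells, was detected in 83.1% and 87.8% (control first here and below). Cd4 was in only 33.9% and 45.8% of them, and Cd8a in 3.39% and 1.71%. Cd8a was in 37.5% and 59.1% of CD8 T-like cells, and Foxp3 in 46.0% and 52.3% of Treg-like cells. The NK-like class held 215 and 96 cells, with Ncr1 in 45.1% and 44.8% and Cd3e in 4.65% and 11.5%. Another 128 and 394 T-like cells stayed without a CD4 or CD8 name. Median UMIs per cell were lower in the control, at 1913 against 2988 in CD4 T-like cells and 2486 against 4090 in CD8 T-like cells. Shares of cells with a UMI are therefore also given after thinning, in which every cell is reduced at random to 1000 UMIs and shallower cells are left out.

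The cells that held Ifng transcripts differed between the libraries. In the control, NK-like cells held 145 of the library's 163 Ifng UMIs and were 27 of its 37 Ifng-positive cells. In the anti-CTLA-4 library CD8 T-like cells held 171 of 472 UMIs, CD4 T-like cells 143, T-like cells without a name 100 and NK-like cells 45. Of the positive cells, 73.0% (55.9 to 86.2) were NK-like in the control and 11.3% (6.45 to 17.9) in the anti-CTLA-4 library. These shares move with the number of cells of each class that were captured, and the levels per class follow below.

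**Figure D1:**
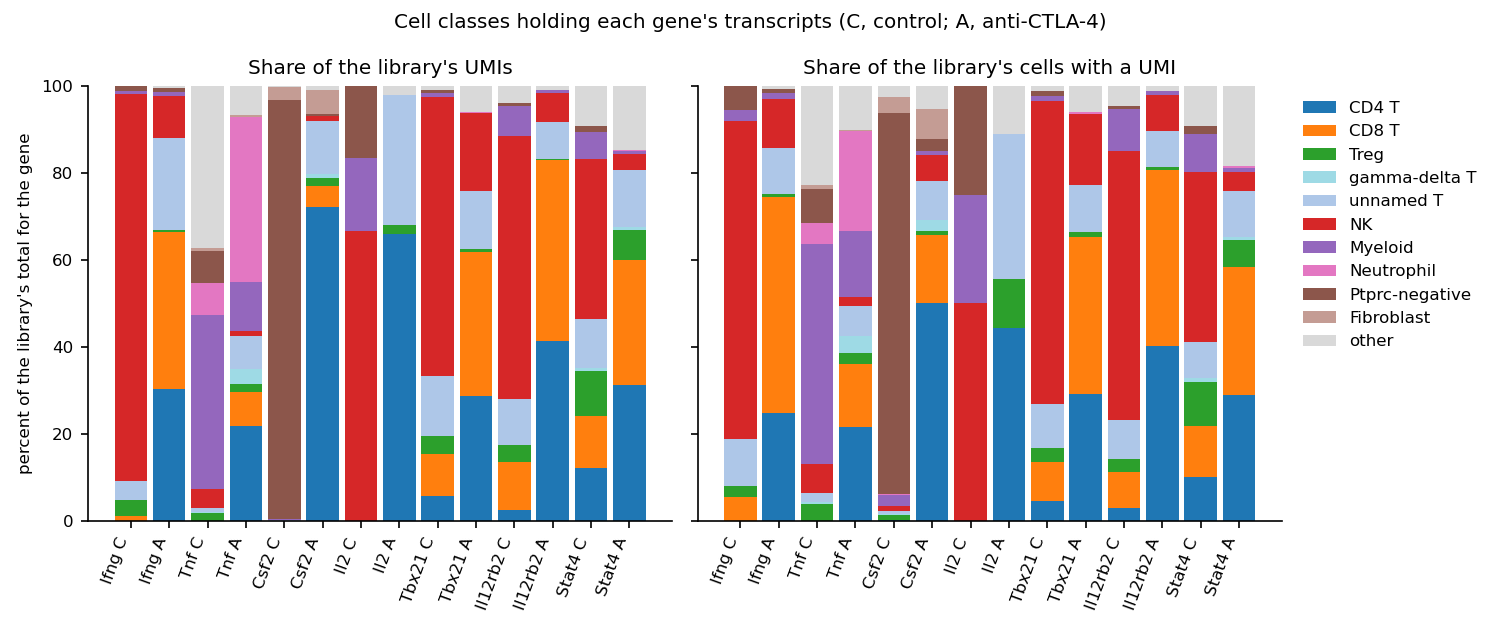
Stacked bars of the share of each gene's UMIs (left) and of its positive cells (right) held by each cell class, in percent of the library's total, for the control (C) and anti-CTLA-4 (A) libraries; other joins the remaining classes. NK-like cells hold 89.0% of Ifng UMIs in the control, and Ptprc-negative cells 96.3% of Csf2 UMIs there.

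Csf2 and Tnf had other sources. Ptprc-negative cells held 11236 of the 11671 control Csf2 UMIs, and 19.6% of them had at least 1. In the anti-CTLA-4 library, with few such cells, CD4 T-like cells held 707 of 979 Csf2 UMIs. For Tnf, monocyte/macrophage-like cells held 40% of the control UMIs and neutrophil-like cells 37.8% of the anti-CTLA-4 UMIs, with CD4 T-like cells at 21.7% there. Il2 was rare, with 6 control and 50 anti-CTLA-4 UMIs in all.

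The regulators were lymphocyte genes in both libraries. T-like and NK-like cells together held 97.6% and 93.8% of Tbx21 UMIs, 88.5% and 98.5% of Il12rb2 UMIs and 83.2% and 84.4% of Stat4 UMIs. In B-like cells Tbx21 was in 0 control cells and in 1.45% of anti-CTLA-4 cells, and Il12rb2 in 0 and 1 cell. Stat4 had the highest share of the 3 there, in 6.94% (2.29 to 15.5) of those of the control and 22.4% (19.2 to 25.9) of those with anti-CTLA-4, where the medians were 1778.5 and 2884 UMIs per cell. B-like cells also served as the background for the T cell cytokines. In them Ifng was found in 0 of 72 control cells and in 1 of 621 anti-CTLA-4 cells (0.161%), Csf2 in 1.39% and 0.322%, and Tnf in 4.17% and 2.09%.

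Over all T-like cells together, a pooling chosen after the small size of the control classes was seen, 5 of the 7 genes were higher with anti-CTLA-4 and 1 was lower. A gene was called when its CPM (its UMIs as a share of all UMIs of the class, scaled to the usual total) differed at least 1.5-fold with the interval of the ratio off 1 and at least 20 UMIs in both libraries together. By that rule 6.36% of the 10212 genes tested were higher and 10.6% lower. Ifng stood at 14.5 CPM (8.11 to 23.9) in the control and 48.1 (43.5 to 52.9) with anti-CTLA-4, 3.32-fold higher (1.99 to 5.98). Tnf was 3.59-fold (2.07 to 6.80), Csf2 6.73-fold (4.12 to 11.8) and Il12rb2 2.22-fold (1.70 to 2.96) higher. Tbx21 was lower, at 0.639 of the control level (0.456 to 0.915), and Stat4 was not called at 1.17-fold (0.982 to 1.40).

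The shares of T-like cells with a UMI did not follow the UMI ratios for every gene. Ifng had a UMI in 7 of 393 T-like cells of the control, 1.78% (0.719 to 3.64), against 114 of 2139 with anti-CTLA-4, 5.33% (4.42 to 6.37). After thinning the shares were 1.19% (0.324 to 3.01) and 2.36% (1.75 to 3.11), and their intervals overlapped. For Tnf the thinned shares were 2.08% and 2.36%, and for Csf2 1.78% and 2.46%, so the number of cells with these transcripts differed by less than its counting error. The control Csf2 share before thinning, 3.82% (2.15 to 6.22), lay within the interval in control B-like cells (0.0352 to 7.50). That interval rests on 1 positive cell of 72, so it cannot show whether the share is background. Il12rb2 was the gene whose thinned share stood apart, at 2.67% (1.23 to 5.01) against 8.68% (7.50 to 9.97), while those of Tbx21 and Stat4 overlapped. The makeup of the pooled class differed, since Treg-like cells were 126 of the 393 in the control but 149 of 2139 with anti-CTLA-4, and had Il12rb2 in 3.17% and 2.01%.

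Il2, the T cell growth factor, was at 0 UMIs in the control T-like cells and at 49 UMIs in 8 anti-CTLA-4 cells, at least 1.95-fold higher against a floor of 3 counts over the group. One cell held 29 of the 49. Without it the call was lost and the bound turned below 1 (log2 -0.33), and the call was lost after subtraction of free RNA too. With 0 control UMIs, that last loss does not show the part of free RNA. Without the cell with the most UMIs in each library, Tbx21 was not called either, at 0.745 (0.517 to 1.10), nor was it when ribosomal and mitochondrial genes were left out of the total. Ifng, Tnf, Csf2 and Il12rb2 stayed called in T-like cells under each of 12 alternative settings, not all of which could lose a call. Giving each cell the same weight changed the value and kept the first call. Setting CD4, CD8 and Treg by UMIs left the pooled cells the same.

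**Figure D2:**
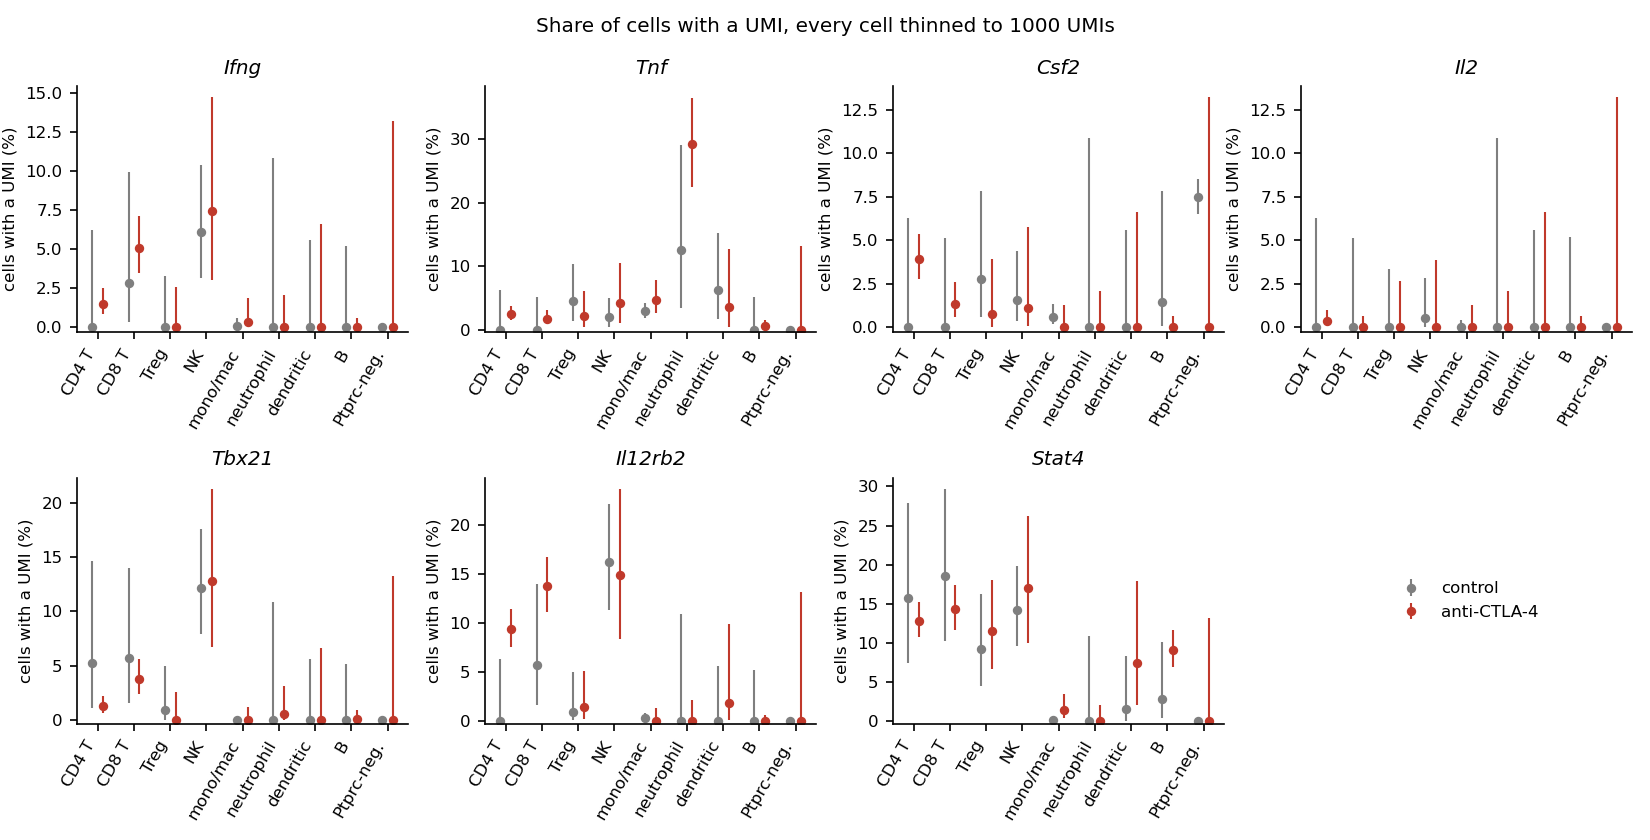
Percent of cells with a UMI of each gene after thinning to 1000 UMIs, by cell class, in the control (grey) and anti-CTLA-4 (red) libraries; points are shares and bars exact 95% intervals for counting error. The Il12rb2 intervals in CD4 T-like cells lie apart, and those of Tnf in neutrophil-like cells overlap at 12.5% and 29.1%.

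In conventional CD4 T-like cells 4 of the 7 genes were higher with anti-CTLA-4 and 1 was lower, where the rule called 3.34% of the genes tested higher and 3.35% lower. No Ifng UMI was found in the 59 control cells, which allows a share of up to 5.08%, and 143 UMIs in 33 of 938 anti-CTLA-4 cells, 3.52% (2.43 to 4.91). That made Ifng at least 2.10-fold higher. The call for Ifng was lost without the single richest cell, with a mitochondrial limit of 10% and at a finer clustering. It was also lost with a shorter list of genes kept out of the T cell clustering, and after subtraction of free RNA. With no control UMI, the loss after subtraction does not show the part of free RNA.

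Tnf likewise had 0 UMIs in the control CD4 T-like cells and 199 in 68 anti-CTLA-4 cells, 7.25% (5.67 to 9.10), at least 2.92-fold higher. Csf2 had 1 and 707 UMIs, a 31.1-fold ratio with an interval from 5.56 to 1230. Il2 had 0 and 33 UMIs, in 4 cells, and was not called. The Tnf and Csf2 calls were lost after subtraction of free RNA. With 0 and 1 control UMIs before it, these losses do not show the part of free RNA. Tnf thinned shares were 0 of 57 and 2.50% (1.59 to 3.73), whose intervals overlapped.

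Among the regulators in CD4 T-like cells, Il12rb2 had a UMI in 4 cells of the control, 6.78% (1.88 to 16.5), against 204 with anti-CTLA-4, 21.7% (19.1 to 24.5). The Il12rb2 level was 4.12-fold higher (1.75 to 12.7), a call lost with the mitochondrial limit of 10% and with the shorter list. After thinning Il12rb2 was in 0 of 57 cells of the control (interval up to 6.27%) and 9.36% (7.55 to 11.4) with anti-CTLA-4, intervals that did not overlap. Stat4 was lower, at 0.636 of the control level (0.455 to 0.913), a call lost under 5 of 11 alternatives, among them leaving out the richest cell (0.741, 0.515 to 1.10). Tbx21 was at 51.5 (20.7 to 106) and 26.9 (21.4 to 33.3) CPM and was not called.

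In CD8 T-like cells 3 of the 6 genes tested were higher and none lower, with 3.73% of all genes higher and 6.46% lower. The 3 were Ifng, Tnf and Il12rb2. Ifng had 2 control UMIs in 2 cells and 171 UMIs in 66 anti-CTLA-4 cells, 10.6% (8.28 to 13.3), a ratio of 6.95 (1.89 to 57.8) that was not called at the finer clustering. Thinned Ifng shares were 2.86% (0.348 to 9.94) and 5.10% (3.49 to 7.16), which overlapped. Tnf had 0 UMIs in 72 control cells, which allows up to 4.17%, and was in 46 anti-CTLA-4 cells, 7.37% (5.45 to 9.71), at least 1.98-fold higher by UMIs. Its call was lost after subtraction of free RNA, which with 0 control UMIs does not show the part of free RNA.

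Il12rb2 was found in 15.3% (7.88 to 25.7) of control and 33.0% (29.3 to 36.9) of anti-CTLA-4 CD8 T-like cells and was 1.74-fold higher by UMIs (1.14 to 2.81), a call lost with the mitochondrial limit of 10%. Its thinned shares overlapped, at 5.71% (1.58 to 14.0) and 13.8% (11.2 to 16.8). Csf2, with 1 and 48 UMIs, was not called at 3.90-fold (0.667 to 157). Tbx21 at 0.650 (0.355 to 1.30) and Stat4 at 1.11 (0.789 to 1.60) were not called. No Il2 UMI was found in CD8 T-like cells of either library, which allows up to 0.481% of the 624 anti-CTLA-4 cells.

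Within the anti-CTLA-4 CD4 and CD8 classes the cytokine transcripts sat in 1 subcluster each. These are descriptions, since the subclusters were drawn from the same cells, and no test was made. The CD4 subcluster led by Serpinb1a, Csf2 and Il1r2 (326 cells) held all 33 Ifng-positive and 65 of the 68 Tnf-positive CD4 T-like cells. The other CD4 subcluster, led by Trib2 and S1pr1, a receptor for exit from tissue (612 cells), had Ifng in 0 cells, which allows up to 0.490%, and Tnf in 3. Of its cells 4 of 612 held any of the 4 cytokines, against 123 of 326 in the first.

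The CD8 class had the same division. The subcluster led by Ly6c1, Cd8a and Klrc1 (243 cells) had Ifng in 24.7% (19.4 to 30.6) and Tnf in 17.3% (12.7 to 22.6) of its cells. The subcluster led by Pde2a and Pakap (381 cells) had Ifng in 1.57% (0.580 to 3.40) and Tnf in 1.05% (0.287 to 2.67). Il12rb2 followed the cytokines, at 67.9% against 10.8% in the CD8 subclusters and 57.4% against 2.78% in the CD4 subclusters. Tbx21 did so too, at 26.7% against 2.10% and 18.1% against 0%. Stat4 was more even in the CD8 subclusters, at 52.7% against 40.7%, and lay further apart in the CD4 subclusters, at 56.1% against 15.4%.

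**Figure D3:**
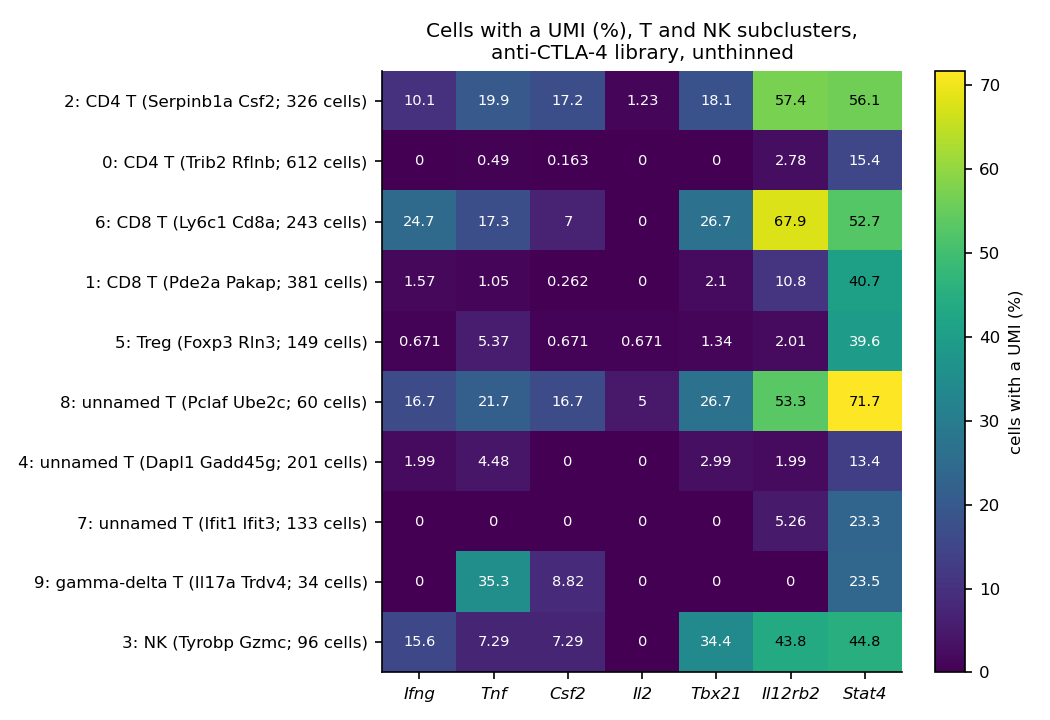
Percent of cells with a UMI of each gene (colour and number, unthinned) in the T and NK subclusters of the anti-CTLA-4 library, each named by class, 2 leading genes and its number of cells. Ifng, Tnf, Csf2, Tbx21 and Il12rb2 are high in subclusters 2, 6 and 8 and near 0 in subcluster 0. NK subcluster 3 has Ifng, Tbx21 and Il12rb2 at 15.6%, 34.4% and 43.8%, and gamma-delta subcluster 9 has Tnf at 35.3%.

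The control library had 15 cells in the CD4 subcluster led by Serpinb1a and 17 in the CD8 subcluster led by Ly6c1. In the former, Ifng and Tnf were found in 0 of 15 cells, which allows up to 20%, Csf2 in 1, Il12rb2 in 4 and Stat4 in 12. In the latter Ifng was in 2 of 17 cells and Tnf in none. For these 2 cytokines a difference within a subcluster was not detectable at that number of cells. Il12rb2 was in 5 of the 17 control CD8 cells, 29.4% (10.3 to 56.0), an interval below that of the 67.9% (61.6 to 73.7) with anti-CTLA-4, and the thinned intervals overlapped. In CPM Il12rb2 stood at 176 (96.4 to 296) and 391.6 (355 to 431) in that subcluster and at 88.1 (28.6 to 206) and 318 (289 to 348) in the CD4 subcluster led by Serpinb1a, on 14 and 5 control UMIs, and neither pair of intervals overlapped. For Ifng and Tnf over a whole class, a different makeup cannot be told apart from a different level per cell. The rest of those classes was 44 control cells in the CD4 subcluster led by Trib2 and 55 in the CD8 subcluster led by Pde2a.

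Cycling T-like cells, led by Pclaf and Ube2c, were left without a CD4 or CD8 name. In the 60 anti-CTLA-4 cells Ifng was found in 16.7% (8.29 to 28.5), Tnf in 21.7% (12.1 to 34.2), Csf2 in 16.7% and Il12rb2 in 53.3% (40 to 66.3). These cells were deep, with a median of 14273.5 UMIs over both libraries, and after thinning Ifng was in 5.08%. Thinned Il12rb2 was in 8.47% (2.81 to 18.7), below the 25.2% (20.6 to 30.4) of the Serpinb1a and the 30% (24.2 to 36.2) of the Ly6c1 subcluster. Doublets among such deep cells were not tested beyond the doublet filter. T-like cells led by the interferon-induced genes Ifit1 and Ifit3 (133 cells) held no UMI of any of the 4 cytokines.

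Gamma-delta T-like cells, led by Il17a and Trdv4, had a pattern of their own. Of 34 anti-CTLA-4 cells, 12 held Tnf, 35.3% (19.7 to 53.5), and none held Ifng, Tbx21 or Il12rb2. The control had 8 such cells, of which 1 held Tnf.

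The UMIs of a cytokine were concentrated in few cells. One CD4 T-like cell, a clonotype of 1 cell, held 58 Ifng, 59 Tnf and 314 Csf2 UMIs among its 7313 UMIs. Another held 115 Csf2 and 29 Il2 UMIs among 4067. The 10 CD4 T-like cells with at least 10 Csf2 UMIs held 81.3% of that class's Csf2 UMIs. In the control, 2 NK-like cells with 52 and 35 Ifng UMIs held more than 50% of the 145 Ifng UMIs of their class. The UMI ratios above thus weigh a few cells heavily, which the shares of positive cells do not.

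**Figure D4:**
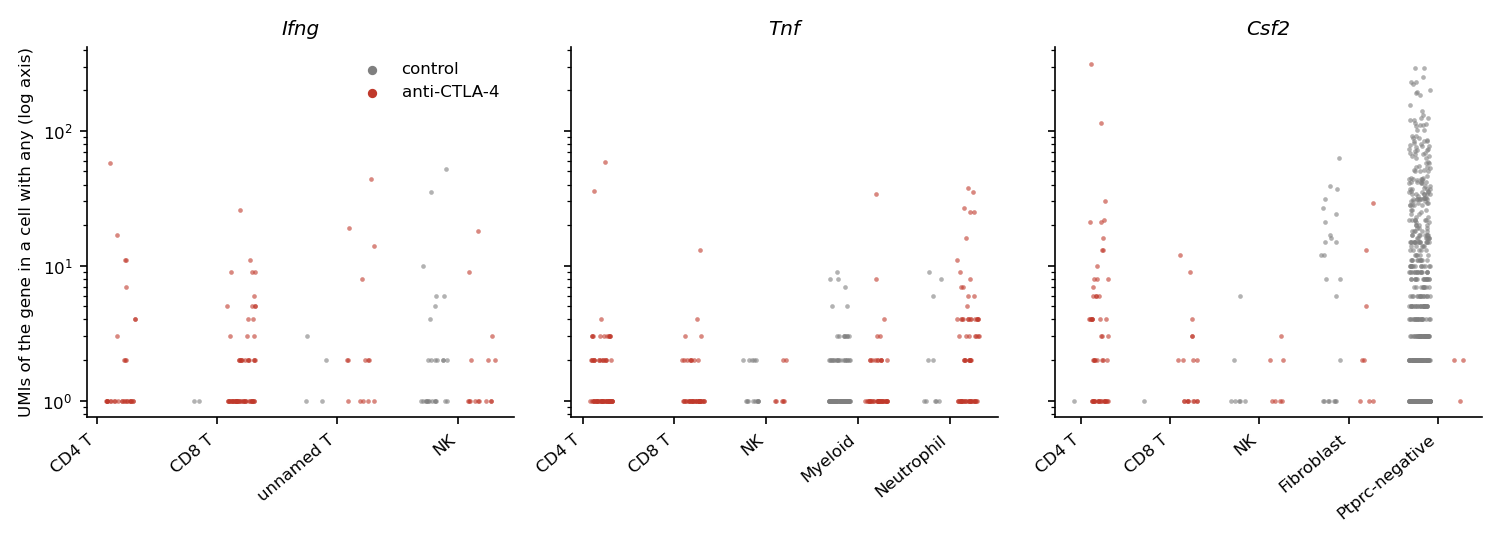
UMIs of Ifng, Tnf and Csf2 in each cell with at least 1 (log axis), by class, in the control (grey) and anti-CTLA-4 (red) libraries; each point is a cell, spread sideways at random. Most positive cells hold 1 to 4 UMIs, a few CD4 T-like cells hold up to 314, and control Ptprc-negative cells reach 294 Csf2 UMIs.

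Cytokines were found together more often than in the remaining cells of the class. The shares in this and the next paragraph are unthinned, and deeper cells can show more of both genes. The CD4 subclusters led by Trib2 and Serpinb1a had medians of 2555 and 4022 UMIs over both libraries, and the part of depth was not tested. Of the 938 anti-CTLA-4 CD4 T-like cells 127 held any of the 4 cytokines, and 22.8% of those held more than 1. Tnf was in 36.4% (20.4 to 54.9) of Ifng-positive cells and in 6.19% (4.71 to 7.96) of the others, and Csf2 in 33.3% (18.0 to 51.8) against 5.08% (3.74 to 6.72). All of Ifng, Tnf and Csf2 were in 5 CD4 T-like cells. In CD8 T-like cells Tnf was in 25.8% (15.8 to 38.0) of Ifng-positive cells against 5.20% (3.51 to 7.38) of the others, and both genes were in 17.9% of the cells with either.

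Within single subclusters the differences were smaller. In the CD4 subcluster led by Serpinb1a, Tnf was in 36.4% (20.4 to 54.9) of Ifng-positive and 18.1% (13.9 to 23.0) of Ifng-negative cells, and within the CD8 subcluster led by Ly6c1 in 28.3% (17.5 to 41.4) and 13.7% (9.04 to 19.5), and the intervals overlapped. Il12rb2 went with Ifng across the CD8 class, in 63.6% (50.9 to 75.1) of Ifng-positive against 29.4% (25.6 to 33.4) of other cells. Inside the Ly6c1 subcluster it did not, at 68.3% against 67.8%. Csf2 and Tbx21 were the pair whose intervals stayed apart there, with Tbx21 in 64.7% (38.3 to 85.8) of the 17 Csf2-positive cells and 23.9% (18.5 to 30) of the others. All pairs of the 7 genes were counted, and this pair is named for its values and carries no test.

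Clonotype size was compared within the anti-CTLA-4 library, since the control TCR library had 275 clonotypes among 282 cells and none above 2 cells. The anti-CTLA-4 TCR library had 1201 clonotypes among 1529 cells, the largest of 25. In CD8 T-like cells Ifng was found in 12 of 283 cells of clonotypes of 1 cell, 4.24% (2.21 to 7.29), in 2 of 51 cells of clonotypes of 2 to 4 cells, and in 36 of 145 cells of clonotypes of at least 5 cells, 24.8% (18.0 to 32.7). Median depth was alike in the first and last group, at 4473 and 4302 UMIs. After thinning the shares were 2.48% (1 to 5.05) and 12.5% (7.58 to 19.0), and they did not overlap.

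The other genes followed clonotype size in CD8 T-like cells to different degrees. Tnf was found in 0.353% of cells in clonotypes of 1 and in 17.9% of cells in clonotypes of at least 5, Csf2 in 0% and 8.28%, and Tbx21 in 4.24% (2.21 to 7.29) and 28.3% (21.1 to 36.3). Il12rb2 was found in 14.8% (10.9 to 19.5), 45.1% (31.1 to 59.7) and 75.2% (67.3 to 82.0) of cells from the smallest to the largest size. Stat4 was at 44.9% (39.0 to 50.9) and 52.4% (44.0 to 60.8), which overlapped. After thinning the intervals of Il12rb2 stayed apart, at 6.03% (3.55 to 9.48) and 31.2% (23.8 to 39.5), and those of Tnf, Csf2 and Tbx21 overlapped. All 145 CD8 T-like cells of the large clonotypes lay in the Ly6c1 subcluster. In that subcluster the 22 cells of clonotypes of 1 cell had Ifng in 36.4% (17.2 to 59.3), a share that overlapped that of the large clonotypes, so size and subcluster cannot be told apart.

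**Figure D5:**
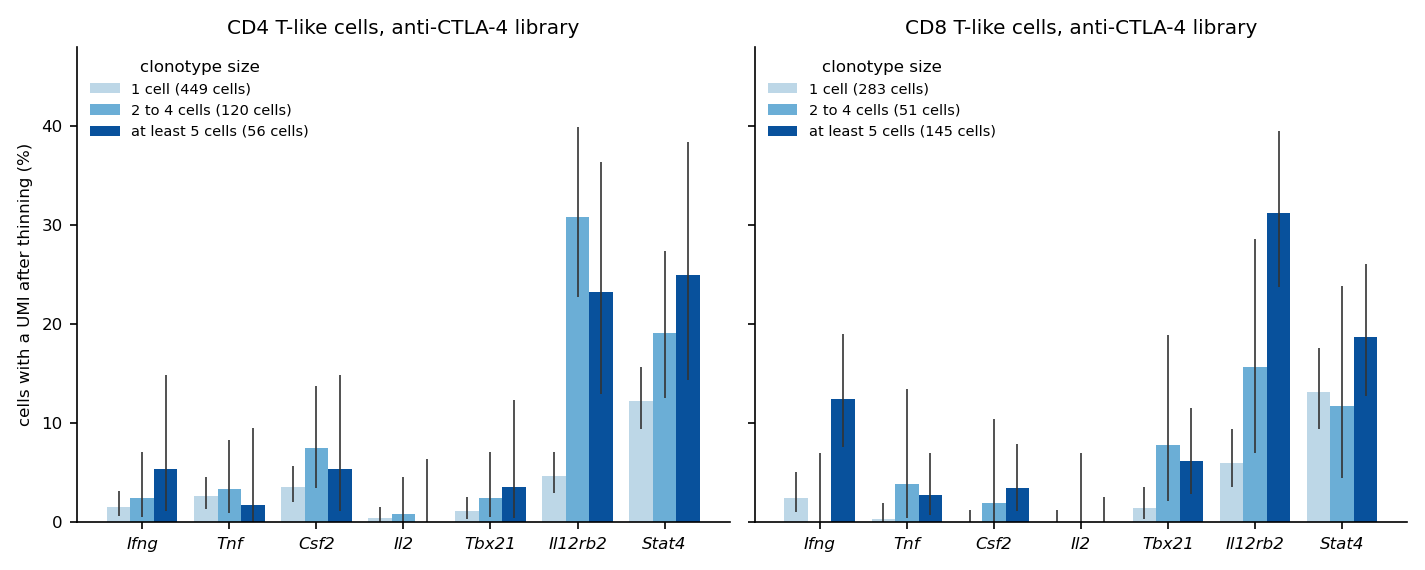
Percent of CD4 (left) and CD8 (right) T-like cells, anti-CTLA-4 library, with a UMI of each gene after thinning to 1000 UMIs, by the size of the cell's clonotype; error bars are exact 95% intervals for counting error, and cells of 1 clonotype are not independent. In CD8 T-like cells Ifng is at 2.48% and 12.5% and Il12rb2 at 6.03% and 31.2% in clonotypes of 1 and of at least 5 cells.

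In CD4 T-like cells Ifng was found in 2.45% (1.23 to 4.34), 8.33% (4.07 to 14.8) and 12.5% (5.18 to 24.1) of cells from the smallest to the largest size, and the thinned shares overlapped at 1.56% (0.630 to 3.19) and 5.36% (1.12 to 14.9). Tnf was at 7.57% and 14.3% and Csf2 at 5.57% and 14.3%, both with overlapping intervals. Il12rb2 stood apart, at 16.7% (13.4 to 20.5) and 62.5% (48.5 to 75.1), and at 4.69% (2.92 to 7.08) and 23.2% (13.0 to 36.4) after thinning. Stat4 was at 26.5% (22.5 to 30.8) and 60.7% (46.8 to 73.5), and its thinned shares overlapped at 12.3% and 25%. All 56 CD4 T-like cells of large clonotypes lay in the Serpinb1a subcluster, where the cells of clonotypes of 1 cell had Il12rb2 in 57.5% (47.9 to 66.8).

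Positive cells were spread over the large clonotypes and not held by 1 of them. Of the 18 clonotypes of at least 5 cells that were mainly CD8 T-like, 16 had an Ifng-positive cell, with a median of 25.8% of their cells and a range from 0 to 80.0%. All 18 had Tbx21-positive, Il12rb2-positive and Stat4-positive cells. Of the 10 that were mainly CD4 T-like, Ifng was found in 5, Il12rb2 in 9 and Stat4 in 10. The largest clonotype, whose CDR3 heads the list above, had Ifng in 5 and Il12rb2 in 17 of its 25 cells. Clonotypes 16 and 26 had Ifng in 4 of 7 and 4 of 5 cells, and clonotype 9, whose 9 cells included 5 CD8 T-like and 1 CD4 T-like cell, had Ifng and Tnf in 4 cells each.

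In NK-like cells the share of cells with Ifng and its level went different ways, and the difference from T-like cells was not tested. Ifng had a UMI in 27 of the 215 NK-like cells of the control, 12.6% (8.44 to 17.7), against 15 of 96 with anti-CTLA-4, 15.6% (9.02 to 24.5). In CPM it was lower with anti-CTLA-4, at 197 (166 to 232) against 130 (94.9 to 174), a ratio of 0.660 (0.462 to 0.928). That was the 1 call among 6 genes tested, where 12.6% of all genes were higher and 7.8% lower, and it was lost with doublets kept, at coarser and finer clustering and after subtraction of free RNA. Thinned Ifng shares were 6.09% (3.19 to 10.4) and 7.45% (3.05 to 14.7), so the number of positive cells showed no difference beyond counting error.

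The regulators in NK-like cells were at like shares in both libraries. Tbx21 was found in 28.8% (22.9 to 35.4) and 34.4% (25.0 to 44.8), Il12rb2 in 38.1% (31.6 to 45.0) and 43.8% (33.6 to 54.3), and Stat4 in 37.7% (31.2 to 44.5) and 44.8% (34.6 to 55.3). Their ratios were 1.40 (0.967 to 2.01), 1.34 (0.989 to 1.79) and 1.25 (0.910 to 1.71), none called. Tnf, with 19 and 9 UMIs, and Csf2, with 13 and 11, were not called.

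Treg-like cells, which restrain other T cells, had Ifng in 1 cell of each library and Tnf in 8 cells of each, 6.35% and 5.37%. Csf2 was in 7 control cells, 5.56% (2.26 to 11.1), with 1 UMI each, and its 16 anti-CTLA-4 UMIs were all in 1 cell. Any of the 4 cytokines was in 11.9% of Treg-like cells in the control and 6.04% with anti-CTLA-4. Il12rb2 was in 3.17% and 2.01% and Tbx21 in 2.38% and 1.34% of cells. Stat4 was the exception, at 114 (78.0 to 161) and 180 (149 to 215) CPM, 1.58-fold higher (1.06 to 2.41). It was the 1 gene called of 3 tested, against 6.3% of all genes higher and 7.56% lower, and the call was lost under 7 of 12 alternatives. Thinned Stat4 shares were 9.17% and 11.5%, and overlapped.

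In myeloid cells Tnf was the one cytokine of the set with many UMIs. Monocyte/macrophage-like cells (908 and 309, with Lyz2 in 95% and 96.8%) had Tnf in 11.5% (9.45 to 13.7) and 15.5% (11.7 to 20.1), at 41.3 and 49.5 CPM, a ratio of 1.20 (0.932 to 1.54). One anti-CTLA-4 cell held 34 of the 105 Tnf UMIs, and without the richest cell of each library the ratio was 0.855 (0.638 to 1.14). None of the 3 genes tested there was called, where 15.2% of all genes were higher and 15.4% lower. Control cells of this class held 17 Csf2 UMIs in 17 cells, 1 each, 1.87% of cells. Control B-like cells had 1.39%, on 1 positive cell of 72, too few to show whether this is background.

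Neutrophil-like cells (83 and 219, with S100a8 in 92.8% and 90.4%) had Tnf in 12% (5.93 to 21.0) of cells in the control and 32.9% (26.7 to 39.5) with anti-CTLA-4. The level was 369 (252 to 521) against 893 (802 to 993) CPM, 2.42-fold higher (1.68 to 3.6), and 3-fold without the richest cell of each library. Tnf was the only member with the 20 UMIs a test needed, and 15% of all genes tested in that class were higher and 17% lower. The call held under all 11 alternatives, but some of them could not lose it. Those that changed only the T and NK clustering or naming left these cells the same. Giving each cell the same weight kept the first call. Median depth was 933 and 1658 UMIs, and after thinning the shares were 12.5% (3.51 to 29.0) of 32 cells and 29.1% (22.5 to 36.5) of 175, which overlapped. The free-RNA genes stood at 22.0% and 11.0% of the Ptprc-negative level in these cells.

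Dendritic-like cells (65 and 54) went the other way for Tnf. It was found in 18.5% (9.92 to 30) and 13.0% (5.37 to 24.9) of cells, which overlapped, at 131 and 41.9 CPM, a ratio of 0.320 (0.184 to 0.536). Of the 12 control cells with Tnf, 1 held 23 of the 57 UMIs and another held 16. Without the richest cell of each library the ratio was 0.357 (0.177 to 0.684). Stat4 was 2.36-fold higher (1.25 to 4.71), with 14 and 38 UMIs, a call lost after subtraction of free RNA. Both members tested were called, 1 in each direction, where 10.8% of genes were higher and 11.6% lower. The makeup of this class differed: Siglech, a plasmacytoid marker, was in 49.2% and 27.8% of cells, and Ccr7, a marker of mature migrating cells, in 35.4% and 68.5%. The part of that makeup in the result was not tested.

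Other genes of the pathway were counted in lists for the same classes. In CD4 T-like cells 4 of the 8 tested genes of the list of other type 1 and effector cytokines were higher and none lower, with a median log2 ratio of 1.57 against -0.05 over all genes tested. Ccl5, a chemokine of effector T cells, was 11.6-fold (4.50 to 42.5) and Ltb, which encodes lymphotoxin beta, 2.72-fold higher (2.04 to 3.69). The other 2 were Ccl4, with 0 and 113 UMIs, and Cd40lg, with 4 and 421, named after their values were seen.

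Of the list of interleukin 12 and 18 input, 3 of 6 tested genes were higher in CD4 T-like cells and none lower. They were Il18r1 at 2.76-fold (1.33 to 6.90) and Il18rap at 3.03-fold (1.17 to 11.2), the 2 chains of the interleukin 18 receptor, and Jak2, a kinase of the interleukin 12 receptor, at 2.27-fold (1.09 to 5.70). Of 7 transcription factors of the type 1 program, Bhlhe40 at 1.62-fold (1.16 to 2.34) and Id2 at 1.89-fold (1.26 to 2.96) were higher, and Irf1, an interferon-induced factor, was lower at 0.516 (0.355 to 0.776). Socs1 and Socs3, which curb cytokine signalling, were lower at 0.525 (0.387 to 0.728) and 0.653 (0.511 to 0.846). None of the 19 tested interferon gamma response genes was higher in CD4 or in CD8 T-like cells, and 2 were lower in each, where 3.34% and 3.73% of all genes were higher and 3.35% and 6.46% lower.

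Genes of dissociation and heat stress also differed in these cells. In CD4 T-like cells 4 of 16 were higher and 1 lower, and Hspa1a had 0 UMIs in the control and 1013 with anti-CTLA-4. In CD8 T-like cells 2 of 16 were higher and 1 lower. Their part in the cytokine results was not tested.

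In CD8 T-like cells Ccl5 was 2.88-fold (2.55 to 3.27) and Ltb 1.86-fold higher (1.51 to 2.32), and Xcl1, a chemokine that draws dendritic cells, was lower at 0.246 (0.166 to 0.374), with 3 genes higher and 1 lower of the 6 tested. The granule protease gene Gzma had 3 and 864 UMIs, a ratio of 23.4 (7.98 to 114), while Cst7, an inhibitor of granule protease processing, was lower at 0.327 (0.233 to 0.468). Of the 8 cytotoxicity genes 1 was higher and 2 were lower.

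NK-like cells had chemokines and granule genes on opposite sides. Of the 6 other effector cytokines tested, 5 were higher and none lower, among them Ccl3 at 3.04-fold (2.01 to 4.62), Ccl5 at 2.63-fold (2.50 to 2.75) and Xcl1 at 1.61-fold (1.35 to 1.92). Of the 8 cytotoxicity genes none was higher and 6 were lower, with a median log2 ratio of -1.25 against 0.07 over all genes. Gzma was at 0.303 (0.284 to 0.323) and Gzmb at 0.172 (0.147 to 0.201) of the control level. Of 11 genes of activation and NFAT/AP-1, 7 were higher and none lower, including Nr4a1, an early gene of receptor signalling, at 2.65-fold (2.01 to 3.5), and of 15 dissociation genes 6 were higher and 2 lower.

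Treg-like cells had 4 of the 7 transcription factors lower and none higher, with Irf1 at 0.410 (0.283 to 0.595) and Id2 at 0.522 (0.413 to 0.661). Of 6 cytotoxicity genes 5 were lower, with Gzmb at 0.239 (0.207 to 0.275), and 9 of 14 dissociation genes were lower with none higher.

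On the receiving side, monocyte/macrophage-like cells had 4 of 9 receptor genes of the 4 cytokines higher and none lower. Csf2rb and Csf2rb2, which encode beta chains of the GM-CSF receptor family, were 2.22-fold (2.08 to 2.38) and 2.06-fold higher (1.77 to 2.40). Of their 22 interferon gamma response genes 6 were higher and 5 lower. Nos2, the inducible nitric oxide synthase, was 12.7-fold (9.21 to 17.9) and Irf1 2.04-fold higher (1.76 to 2.35), while the chemokine gene Cxcl10 was at 0.266 (0.213 to 0.330). Il27, with 34 and 1 UMIs, and Ebi3, at 0.352 (0.232 to 0.518), which encode the 2 chains of interleukin 27, were lower.

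In neutrophil-like cells 11 of the 18 tested interferon gamma response genes were higher and 1 was lower, with a median log2 ratio of 1.25 against 0.06 over all genes. Cd274, which encodes the ligand PD-L1, was 3.44-fold (2.63 to 4.58) and Gbp2 2.56-fold higher (1.87 to 3.6), and Cxcl9 had 0 and 37 UMIs. Ccl3 was 1.65-fold (1.49 to 1.83) and Ccl4 2.28-fold higher (2.06 to 2.53). Tnfaip3, a TNF-induced brake on NF-kB, was 2.40-fold higher (1.53 to 3.96), and Zfp36, whose product destabilises Tnf mRNA, was at 0.471 (0.410 to 0.542). Of 15 dissociation genes 11 were lower and 1 higher in the same cells, Fos among them at 0.332 (0.270 to 0.409), and the part of this in the Tnf result was not tested.

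Over 29 points, each a cell class in 1 library, the gene among 7490 whose level was most like that of Ifng was Il12rb2 (Pearson r = 0.886), followed by Klrc1 at 0.880, Fasl at 0.876, Eomes at 0.873 and Gzma at 0.870. Klrc1 encodes an NK and CD8 receptor chain, Fasl a death ligand, Eomes a T-box factor and Gzma a granule protease. Il12rb2 and Tbx21 had an r of 0.938 with each other. The points come from 2 libraries and share their depth and free RNA, so these values describe the order of classes and no test was made.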

How the data were processed

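The deposited expression matrices are unnormalized UMI counts, and the deposited receptor tables give UMI counts of contigs and the authors' clonotypes. Cell Ranger 5.0.0 and builds mm10 and GRCm38 are named in the submitters' processing notes, and no source used here names the annotation release. The files also hold barcode and gene names, per the file headers. Genes sharing a symbol were summed.

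A barcode was kept with 200 or more genes and no more than 15% of UMIs from mitochondrial genes. Scrublet marked 0 control cells and 1 anti-CTLA-4 cell, so the expected rate of highest scores (0.8% per 1000 barcodes) was removed, 248 and 137 cells. Clustering used scanpy 1.11.5 and leidenalg 0.10.2 with 2000 variable genes, 30 components, 15 neighbours and resolution 1.0. T and NK cells were clustered again without 371 genes that lead Ptprc-negative clusters, a threshold set after the subclusters were seen, as was the stricter set of 63 genes behind the free-RNA level. A T subcluster was CD8 where Cd8a plus Cd8b1 exceeded Cd4 by more than 8 times, CD4 where that ratio was under 0.5 and Treg by its markers. Classes with at least 30 cells in each library were compared.

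Shares have Clopper-Pearson intervals and ratios exact conditional binomial intervals (scipy 1.17.1). UMIs are molecules, and intervals and floors cover counting error only. Medians of lists add 0.5 UMI. The members and lists were chosen with earlier results of these data known. Named beside members are, per list, the 2 genes with the most UMIs and the 2 farthest from a ratio of 1, and the 5 genes most like Ifng (log2 of CPM plus 10, at least 200 UMIs). The B cell receptor library was not used here. Promoters come from RefSeq. Alternatives were the filters, resolution, thinning to 2000 UMIs, the call rule, clonotype definition and removal of free RNA.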

Additional observations from a re-analysis of the deposited data

Results flagged for a closer look

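The same contrast of anti-CTLA-4 over control gave calls in opposite directions in different classes for 3 genes. None of these differences between classes was tested, since each rests on 1 library per group. The log2 ratio of Ifng was at least 1.07 in CD4 T-like cells and 2.80 in CD8 T-like cells, and -0.60 in NK-like cells. For Tnf it was at least 1.54 in CD4 T-like and at least 0.98 in CD8 T-like cells and 1.28 in neutrophil-like cells, and -1.65 in dendritic-like cells. For Stat4 it was -0.65 in CD4 T-like cells, 0.66 in Treg-like cells and 1.24 in dendritic-like cells. Several of these calls were fragile. The Ifng call held under 5 of 10 alternatives in CD4 T-like and 8 of 12 in NK-like cells. The Stat4 call held under 6 of 11 in CD4 T-like and 5 of 12 in Treg-like cells. The others held under all or all but 1. In control NK-like cells 3 cells held 66.9% of the Ifng UMIs.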

How the results depend on the processing

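Over 93 results and 18 alternative settings, 939 of 1033 values stayed near the first value, 93 moved and 1 reversed. Near meant inside the counting interval of the first value, or within 1.5-fold for a count of genes. A reversal was looked for only among ratios that were called, and a value could stay near while its call was lost. The setting with the same weight for each cell gave new values and kept the first call, so it could lose none. Settings that changed only the T and NK clustering or naming left the other classes as they were. The reversed one was the lower bound on the Il2 log2 ratio in all T-like cells, -0.33 without the cell with the most UMIs in each library. It was set against a floor of 3 counts. With 20 anti-CTLA-4 and 0 control UMIs left, the observed direction did not turn. The 8 calls higher over the CD4, CD8, Treg, NK and monocyte/macrophage-like classes became 4 with a mitochondrial limit of 10% and 3 with free RNA subtracted. Of those lost by subtraction, Ifng, Tnf and Csf2 in CD4 T-like and Tnf in CD8 T-like cells had 0 or 1 control UMIs. Genes with 0 control UMIs were called without subtraction. Their loss is therefore a matter of that calculation, and the count of 3 does not show the part of free RNA. The 2 calls lower, Stat4 in CD4 T-like and Ifng in NK-like cells, were both lost with doublets kept and at resolutions 0.5 and 2.0, where the count of 1 was Csf2 in monocyte/macrophage-like cells. The count was 1 with CD4, CD8 and Treg set by UMIs and without the richest cell (Ifng in NK-like cells) and with free RNA subtracted (Stat4 in CD4 T-like cells), 5 with no minimum of UMIs and 0 with a fold of 2. The list of other effector cytokines had 2 in place of 4 genes higher in CD4 T-like cells with the mitochondrial limit of 10%. With thinning to 2000 UMIs the anti-CTLA-4 share with Ifng was 3.71% in all T-like cells and 7.45% in CD8 T-like cells, that with Tnf in neutrophil-like cells was 38.6%, and that with Il12rb2 in CD4 T-like cells was 10.7% in clonotypes of 1 and 39.3% in clonotypes of at least 5 cells. The neutrophil-like Tnf share was 20.1% when 2 UMIs were asked of unthinned cells. The cause of these moves was not tested, apart from thinning and the UMI minimum, which set how many UMIs a cell can show. With free-RNA genes kept in the clustering, the control CD4 and CD8 classes fell under 30 cells and were not compared. The subtraction of free RNA was not run for shares of cells, co-detection or clonotypes. The setting without the richest cell, the shorter gene list and the pooled T-like class were chosen after seeing the data. No paired analysis was possible because there was 1 library per group and no test across samples.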

Other observations

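Cycling T-like cells, which the report gives only as a whole, also differed by clonotype size in the anti-CTLA-4 library. Ifng was in 0 of 23 cells of clonotypes of 1 cell, which allows up to 13.0%, in 1 of 10 cells of clonotypes of 2 to 4 cells, and in 9 of 19 cells of clonotypes of at least 5 cells, 47.4% (24.4 to 71.1). Tbx21 was in 2, 3 and 9 of these cells, while Stat4 was in 18 of 23 and 15 of 19 of the smallest and largest sizes. Median depth was 15407 UMIs in the first group and 15400 in the last. After thinning to 1000 UMIs Ifng was in 0 of 23 and 3 of 19 cells, with intervals that overlapped. The 19 cells came from 11 clonotypes, and cells of 1 clonotype are not independent. This split was looked at after the values were seen and carries no test.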
